A study of Homo sapiens with 4 samples.

Results

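The 9 genes examined here build and control the SREBP (sterol regulatory element-binding protein) pathway, which sets how much cholesterol and fatty acid a cell makes. They were listed by name: SREBF1, SREBF2, SCAP, INSIG1, INSIG2, MBTPS1, MBTPS2, NR1H2 and NR1H3, out of 19663 protein-coding genes. Binding of the transcription factor c-MYC was mapped with ChIP-seq, in which DNA pulled down by an antibody is sequenced. The cells were MIA PaCa-2, a long-established human line of pancreatic ductal adenocarcinoma. All cells were treated for 8 h. One group received the solvent DMSO, one AMG510 at 100 nM, and one trametinib, an inhibitor of the kinase MEK, at 10 nM. Each group gave 1 library with the c-MYC antibody, and DMSO gave a further library with non-specific IgG, so the 4 libraries hold 1 sample of each kind. No comparison below has a replicate check, and no p-value is given between conditions. Whether a difference came from the drug or from the preparation of a library cannot be told apart in this design. Peak lists hold no expression values, so the cell type was not checked against markers.

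SREBP precursors sit in the membrane of the endoplasmic reticulum, bound to the escort protein SCAP. When sterols are plentiful, INSIG proteins hold this complex in place. When sterols fall, SCAP carries the precursor to the Golgi, where the proteases encoded by MBTPS1 and MBTPS2 cut it in turn and free the part that enters the nucleus and switches on lipid synthesis genes. NR1H2 and NR1H3 encode the liver X receptors (LXRs), which sense oxidized sterols and raise SREBF1 transcription. c-MYC binds DNA together with its partner MAX, preferably at the E-box CACGTG.

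For each gene, a promoter peak was a peak with its summit at most 1 kb from a transcription start site (TSS) of one of its protein-coding transcripts. Peaks elsewhere in the gene or within 10 kb upstream of it were kept apart. The 4 lists held 11 promoter peaks and 4 gene-body or upstream peaks at these genes, 15 in all. Several values describe a peak. Fold enrichment divides the summit pileup plus 1 by the local background plus 1, with the background that the peak caller used for that library. At low pileups the added 1 lowers the value. The tag number is that pileup, solved from the deposited values, and its 95% interval covers counting error only. The score is the −log10 q-value times 10, and the rank is the share of other peaks with a lower fold enrichment. The estimated number of tags in calling was 22700000 tags (IgG), 24000000 (DMSO), 24300000 (AMG510) and 24800000 (trametinib), and the genome-wide background was 1.2, 1.57, 1.42 and 1.5 tags. This order is not that of the uniquely mapped reads the paper reports, which were fewest in trametinib. The estimate therefore does not show that trametinib was the deepest library.

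The reference sequence under the peaks is shown for the genes where summits of several libraries fell close together or where an E-box lay without a peak. Each is the plus strand of GRCh38, 5′ to 3′, with the E-box CACGTG in capitals. Its variant CACGCG is in capitals too, at MBTPS2, where it lies on the minus strand and so reads CGCGTG. At SREBF1 (chr17:17836455-17836554) the window spans all 3 summits. At MBTPS2 (chrX:21839894-21840022) it runs from the E-box to the DMSO summit. At MBTPS1 (chr16:84117389-84117519) it runs from the AMG510 summit to the E-box. At INSIG1 (chr7:155297455-155297582) it spans the summits of both drug libraries. The last lines give the E-boxes of SCAP (chr3:47475982-47476011) and INSIG1 (chr7:155297811-155297840), which lay under no peak.
SREBF1: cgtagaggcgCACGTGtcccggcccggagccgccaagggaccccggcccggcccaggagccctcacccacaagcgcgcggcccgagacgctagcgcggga
MBTPS2: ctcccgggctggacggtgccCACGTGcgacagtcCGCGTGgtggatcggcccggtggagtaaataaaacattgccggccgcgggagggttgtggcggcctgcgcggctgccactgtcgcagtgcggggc
MBTPS1: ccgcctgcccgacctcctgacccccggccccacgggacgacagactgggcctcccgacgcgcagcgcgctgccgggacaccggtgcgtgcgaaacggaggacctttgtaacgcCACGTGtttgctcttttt
INSIG1: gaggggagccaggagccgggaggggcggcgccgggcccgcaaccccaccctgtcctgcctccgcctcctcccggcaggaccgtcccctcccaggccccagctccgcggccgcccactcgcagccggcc
SCAP E-box: cgccgccctccgCACGTGcgcccagcggcg
INSIG1 E-box: gccgggcaggctCACGTGatgcgggccccg

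Promoter peaks were found at both SREBP genes, both proteases and 1 of the INSIG genes, and at neither LXR gene nor SCAP. In DMSO, 4 of the 9 genes had one (SREBF1, SREBF2, MBTPS1 and MBTPS2), where 24.2% of all protein-coding genes did. In AMG510 the number was again 4 (SREBF1, INSIG1, MBTPS1 and MBTPS2), against 15.3% of all genes. In trametinib it was 3 (SREBF1, INSIG1 and MBTPS2), against 11.8%. The IgG library had none at these genes, with a background of 0.559%. A call in IgG needed 11 tags at SREBF1 and 7 at MBTPS2, below the intervals of the scaled DMSO values (26 tags, 18 to 36.4, and 13.8 tags, 8.16 to 21.8). At SREBF2 and MBTPS1, also scaled from DMSO, and at INSIG1, scaled from AMG510, the number needed lay inside the interval, so that the absence of an IgG peak there is less informative. All 3 c-MYC libraries had a promoter peak at 2 genes, SREBF1 and MBTPS2, as they did at 5.59% of all genes. In at least 1 c-MYC library a promoter peak was present at 5 of the 9 genes, as at 31.7% of all genes.

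Stricter limits on the strength of promoter peaks left members in DMSO alone. With a promoter peak of fold enrichment above 5, SREBF1 and MBTPS2 were left in DMSO, where 12.1% of all genes passed. No member was left in AMG510 (5.75%) or trametinib (4.87%). In AMG510, SREBF1 (4.85), MBTPS2 (4.91) and MBTPS1 (4.96) lay just under this limit, and INSIG1 had 4.23. A score above 60 left the same pair in DMSO (9.81% of all genes) and again none in AMG510 (2.98%) or trametinib (2.93%). The median fold enrichment of the member promoter peaks was 5.64 in DMSO (4 peaks), 4.88 in AMG510 (4 peaks) and 3.87 in trametinib (3 peaks). For all promoter peaks of the same libraries it was 4.90, 4.64 and 4.71. The member medians rest on different genes in each library, so they do not give a change at the same genes. SREBF1 and MBTPS2 had lower values in both drug libraries than in DMSO. MBTPS1 had a higher value in AMG510 (4.96) than in DMSO (4.38). In trametinib, each of the 3 member peaks stood above 16% or less of the promoter peaks of that library.

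**Figure D1:**
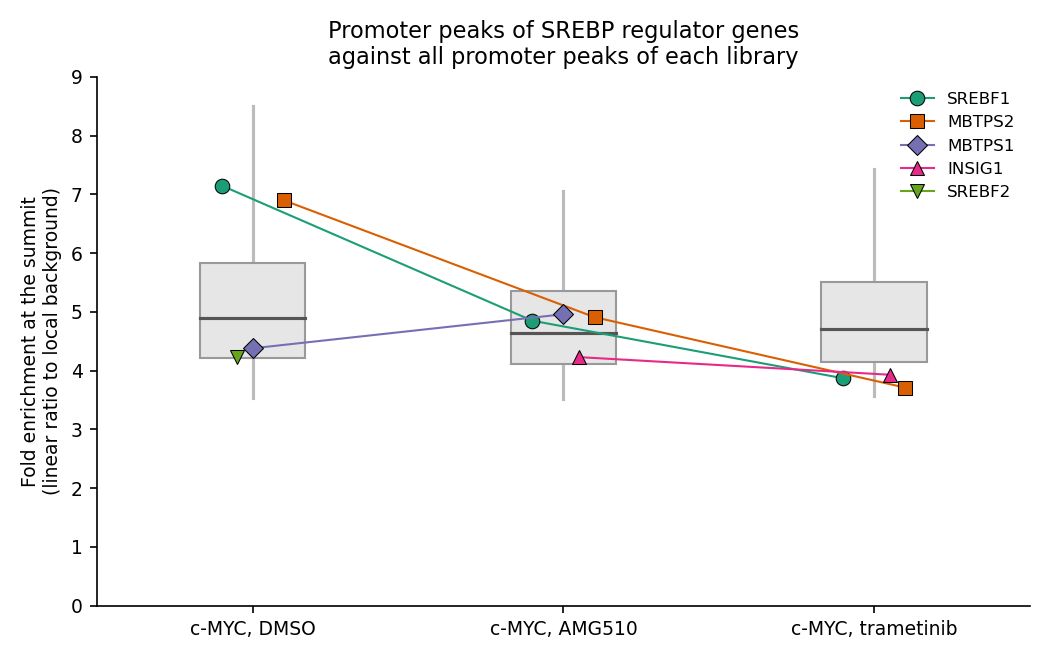
Fold enrichment (linear ratio to the local background, y axis) of the promoter peaks at 5 genes in each c-MYC library (x axis, 1 library each); lines join peaks of one gene, grey boxes run from the 25th to the 75th percentile of all promoter peaks with their median, and grey lines reach from the 5th to the 95th percentile. SREBF1 and MBTPS2 stand above the box in DMSO, inside it in AMG510 and below it in trametinib.

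SREBF1, the gene of SREBP-1, which chiefly drives fatty acid synthesis genes, had the strongest peak of the group (chromosome 17, 17810399 to 17837002, minus strand). The DMSO peak ran from 17836362 to 17836624, with a fold enrichment of 7.15, above 89.8% of the DMSO promoter peaks. The AMG510 peak, from 17836446 to 17836976, had 4.85 and stood above 58.2% of the promoter peaks of its library. The trametinib peak, from 17836455 to 17836816, had 3.87 and stood above 13.7%. Fold enrichment was thus highest in DMSO and lowest in trametinib, while the ranks refer to lists of 4617, 2806 and 2124 promoter peaks and are not compared between libraries. There were 34 tags in DMSO (interval 23.5 to 47.5), 20 in AMG510 (12.2 to 30.9) and 16 in trametinib (9.15 to 26.0). The intervals of DMSO and either drug overlapped at their edges.

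All 3 summits fell in intron 1 of SREBF1, 501 bp (DMSO), 470 bp (AMG510) and 462 bp (trametinib) downstream of the canonical TSS. A promoter window of 500 bp would therefore leave out the DMSO peak by 1 bp and keep those of both drugs. The AMG510 and trametinib summits were 8 bp apart, and the DMSO summit lay 31 and 39 bp from them. An E-box at 17836465 to 17836470, shown above, was inside each of the 3 peaks, 15 bp from the DMSO summit, 46 bp from that of AMG510 and 54 bp from that of trametinib.

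The ratio of fold enrichment between a drug and DMSO was 0.678 at SREBF1 for AMG510 and 0.541 for trametinib. Among the 1530 DMSO promoter peaks that an AMG510 peak overlapped, the median ratio was 0.860 and 19.1% had a lower ratio than SREBF1. Among the 1279 overlapped by trametinib it was 0.857, and 4.53% were lower. These ratios exist only for peaks called in both libraries. The overlapped peaks had any strength in DMSO and were not matched to SREBF1, which stood above 89.8% of the DMSO promoter peaks. Its place among the ratios therefore does not show an unusual reduction. The same limit holds for the ratios of MBTPS2 and MBTPS1 below.

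SREBF2 encodes SREBP-2, the main activator of cholesterol synthesis genes, and lies on the plus strand of chromosome 22 from 41833105 to 41907306. It had a promoter peak in DMSO alone. This peak ran from 41833169 to 41833569, with its summit in the 5′ UTR in exon 1, 152 bp downstream of the canonical TSS. It was a weak one, with 10 tags (4.80 to 18.4) and a fold enrichment of 4.24, above 25.7% of the DMSO promoter peaks. Scaled to the genome-wide background of the drug libraries, 10 tags correspond to 9 in AMG510 (4.31 to 16.5) and 9.52 in trametinib (4.56 to 17.5). At the same relative local background a call needed 7 tags in AMG510 and 8 in trametinib, inside both intervals. A pileup equal to the scaled DMSO value could thus fall on either side of the limit by counting error alone. The nearest AMG510 summit to a start of SREBF2 was 47.7 kb away and the nearest trametinib summit 289 kb away.

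MBTPS2 encodes the protease that makes the second cut, within the membrane, and lies on the plus strand of chromosome X from 21839617 to 21885423. In fold enrichment, its promoter peaks showed the order seen at SREBF1. The DMSO peak, from 21839507 to 21840090, had a fold enrichment of 6.90, above 88.1% of the DMSO promoter peaks. The AMG510 peak, from 21839857 to 21840127, had 4.91 (above 60.2%), and the trametinib peak, from 21839685 to 21840168, had 3.71 (above 8.76%). The summits held 18 tags (10.7 to 28.4), 12 tags (6.20 to 21.0) and 11 tags (5.49 to 19.7), respectively, so that each interval held the values of the other libraries. The local background was 1.75, 1.65 and 2.23 tags. Between AMG510 and trametinib the tags were thus nearly equal, and the lower fold enrichment came with a higher background. The drug to DMSO ratio of fold enrichment was 0.711 for AMG510, with 24.6% of the overlapped promoter peaks lower, and 0.538 for trametinib, with 4.30% lower.

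The MBTPS2 summits were spread more widely than those of SREBF1. Those of DMSO and AMG510 were 59 bp apart in intron 1, at 385 and 326 bp past the canonical TSS. In trametinib the summit lay in coding exon 1, 143 bp downstream, 242 bp from the DMSO summit and 183 bp from that of AMG510, although the peaks overlapped by 406 and 271 bp. The single E-box, at 21839914 to 21839919, was inside all 3 peaks. It was 83 bp from the DMSO summit, 24 bp from that of AMG510 and 154 bp from that of trametinib.

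MBTPS1 encodes the protease that makes the first cut, and occupies 84053761 to 84116942 of chromosome 16, minus strand. It had promoter peaks in DMSO and AMG510 and was the exception among the genes called in both. The DMSO peak, from 84117178 to 84117362, had 12 tags (6.20 to 21.0) and a fold enrichment of 4.38. The AMG510 peak, from 84117126 to 84117555, had 14 tags (7.65 to 23.5) and a fold enrichment of 4.96. Its ratio of 1.13 was above that of 84.8% of the overlapped promoter peaks, where 71.0% of the ratios were below 1. The tag intervals overlapped over most of their length. The summits lay 307 and 467 bp upstream of the canonical TSS, 160 bp apart. They were nearer to the start of the divergent non-coding gene MBTPS1-DT, at 219 and 379 bp, than to MBTPS1. The peaks cannot be assigned to either gene. The E-box at 84117502 to 84117507 was inside the AMG510 peak, 93 bp from its summit, and outside the DMSO peak, 253 bp from its summit. The nearest trametinib summit to a coding start of MBTPS1 was 186 kb away. A call there needed 9 tags, within the interval of the scaled DMSO value (11.4, from 5.90 to 19.9).

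INSIG1, which encodes the sterol-dependent anchor of the SCAP complex and is itself a target of SREBP, lies on the plus strand of chromosome 7 from 155297776 to 155310235. It had a promoter peak in both drug libraries and none in DMSO. The AMG510 peak, from 155297268 to 155297582, had 14 tags (7.65 to 23.5) and a fold enrichment of 4.23. The trametinib peak, from 155297261 to 155297632, had 13 tags (6.92 to 22.2) and a fold enrichment of 3.93. The peaks overlapped by 315 bp and their summits were 67 bp apart, 393 and 326 bp upstream of the canonical TSS. They also lay 56 and 11 bp from the start of the divergent non-coding gene INSIG1-DT, so that the peaks cannot be assigned to either gene. The E-box of the promoter, 53 bp upstream of the canonical TSS, was outside both peaks, 338 and 271 bp from the summits. The nearest DMSO summit was 145 kb away. Scaled to the DMSO library, the AMG510 value corresponds to 15.6 tags (8.51 to 26.1), and a call needed 10, inside this interval.

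**Figure D2:**
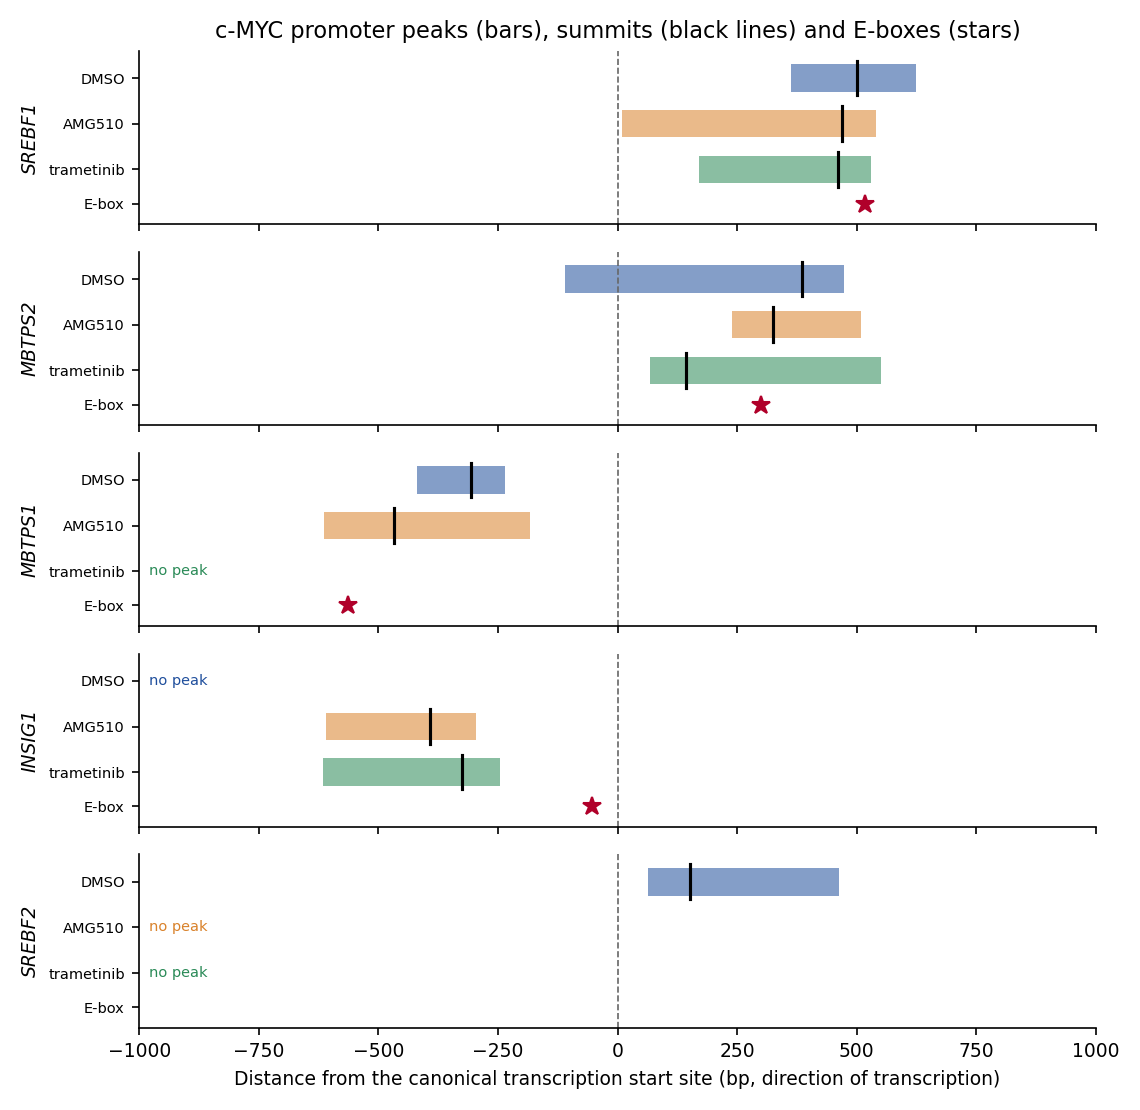
Promoter peaks (bars), summits (black lines) and E-boxes (stars) of the 5 genes with a promoter peak, by distance in bp from the canonical TSS (x axis, dashed line at 0, in the direction of transcription) for the c-MYC libraries in DMSO, AMG510 and trametinib. The summits of SREBF1 lie together beside the E-box, those of MBTPS1 and INSIG1 lie upstream of the TSS, and SREBF2 has a peak in DMSO alone.

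**Figure D3:**
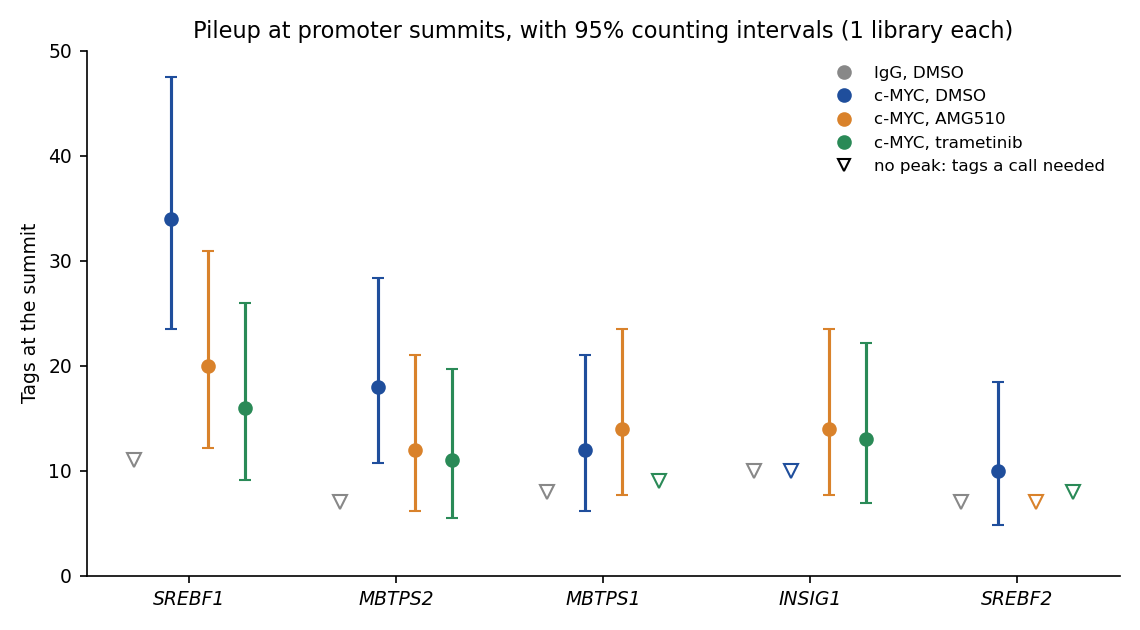
Tags at the promoter summits (y axis) of 5 genes in each library; points are single libraries, bars are 95% counting intervals, and open triangles mark the tags a call needed in a library without a peak, at the local background of the library that had one, scaled by genome-wide background. The triangles of the c-MYC libraries lie between 7 and 10 tags, within the intervals of the called libraries.

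The other 4 genes had no promoter peak in any library. SCAP (chromosome 3, 47413681 to 47477126, minus strand), the escort protein's gene, was the barest, with the nearest summit to one of its starts 280 kb away in DMSO, 159 kb in AMG510 and 303 kb in trametinib. Its E-box, 56 bp upstream of the canonical TSS, thus lay under no called peak. For NR1H2, which encodes LXRβ (chromosome 19, 50329653 to 50383388, plus strand), the nearest summit lay 13.7 kb away in DMSO, 28.5 kb in AMG510 and 134 kb in trametinib. NR1H3, which encodes LXRα (chromosome 11, 47248300 to 47269033, plus strand), had its nearest summit 33.0 kb away in DMSO, 9.02 kb in AMG510 and 292 kb in trametinib. The AMG510 one lay past the 3′ end of the gene. INSIG2 (chromosome 2, 118088452 to 118110997, plus strand), the second INSIG gene, had an upstream AMG510 peak described next. A pileup below the calling limit is not known at any of these genes.

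The 4 gene-body and upstream peaks were each called in a single library. In DMSO, 2 of the 9 genes had one (13.7% of all genes), in AMG510 also 2 (16.7%), and in trametinib and IgG none (8.93% and 6.33%). The shares of all genes were not matched for gene length. SREBF1 had a DMSO peak from 17824928 to 17825119 in intron 1, with 13 tags (6.92 to 22.2) and a fold enrichment of 4.05. Its summit was 1362 bp upstream of an internal coding start at 17823618, the closest of all summits that missed the 1 kb limit. In AMG510 the gene had a peak from 17816036 to 17816192 in intron 11, with 16 tags (9.15 to 26.0) and a fold enrichment of 5.24. The summit was 225 bp from the nearest start of any SREBF1 transcript, coding or not, and 1737 bp from the nearest coding start. That value was above 82.6% of the AMG510 list and above the promoter peak of SREBF1 in the same library. MBTPS1 had a DMSO peak from 84077238 to 84077504 in intron 11, with 10 tags (4.80 to 18.4) and a fold enrichment of 3.60, above 9.25% of its list. INSIG2 had an AMG510 peak from 118080421 to 118080637, 7927 bp upstream of its canonical TSS, with 12 tags (6.20 to 21.0) and a fold enrichment of 5.00. None of the 4 held a CACGTG within 100 bp of the summit.

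Peak by peak, an AMG510 peak overlapped 3 of the 4 DMSO promoter peaks of the members, where 33.1% of all DMSO promoter peaks were overlapped. A trametinib peak overlapped 2 of the 4, where 27.7% of all were. These shares were not matched for strength, and SREBF1 and MBTPS2 stood above 89.8% and 88.1% of the DMSO promoter peaks. The counts therefore do not show that members kept their peaks unusually often. The 2 DMSO gene-body peaks were overlapped in neither drug library, against 8.75% of all DMSO peaks outside promoters for AMG510 and 7.23% for trametinib. The comparisons share the DMSO library and so are not independent of each other.

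CACGTG, searched in the reference sequence within 100 bp of the summit, was found at 2 of 6 member peaks in DMSO (11.3% of all DMSO peaks), 3 of 6 in AMG510 (6.18%) and 1 of 3 in trametinib (9.15%). All of these matches were at promoter peaks of SREBF1, MBTPS1 and MBTPS2, and the same E-box was counted again in each library. The shares cover all peaks of a list, at promoters or not. No share among promoter peaks alone was computed, so the counts do not show an enrichment at the members. The palindrome reads the same on both strands. In the DNA within 1 kb of the canonical TSS it was present at 5 of the 9 genes (SREBF1, SCAP, INSIG1, MBTPS1 and MBTPS2, with a single copy each) and at 29.2% of the 19689 protein-coding genes searched. Of these 5, all but SCAP had a promoter peak in some library, and SREBF2 had one without an E-box in this window. A match shows only that the letters are present.

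Base composition differed among the members. Within 500 bp of the canonical TSS the share of G and C was 77.6% at INSIG1, above 97.9% of all genes, 72.3% at MBTPS1 and 71.2% at SREBF2, and it was lowest, at 57.6%, at MBTPS2. The median of all genes was 61.3%. The ratio of observed to expected CpG was 0.208 at NR1H3, below that of most genes (11.4% were lower), and between 0.699 and 0.935 at the other members, with a median of 0.726 over all genes. The promoters without a peak thus included both the CpG-poor start of NR1H3 and the CpG-rich start of SCAP, at 0.856.

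The surrounding pathway was followed in 6 lists of 60 further genes. In DMSO 22 of the 60 had a promoter peak (36.7%, against 24.2% of all genes). In AMG510 it was 9 (15%, against 15.3%) and in trametinib 17 (28.3%, against 11.8%). The AMG510 count was thus near the share of all genes. The IgG list had 0. Partners of SREBP processing and turnover, such as ubiquitin ligases of the endoplasmic reticulum, had one at 5 of 8 genes in DMSO (ERLIN1, RNF139 and RNF145 among them), 2 in AMG510 and 3 in trametinib. RNF145 was called in all of the c-MYC lists. Of the transcriptional cofactors of SREBP, 5 of 7 had one in DMSO (NFYA, NFYB, NFYC, CREBBP and EP300), 3 in AMG510 and 3 in trametinib, with NFYA in all of them. The COPII coat, which carries the SCAP complex out of the endoplasmic reticulum, had 1 of 10 in DMSO and AMG510 (SEC31A) and 4 in trametinib (SAR1B, SEC24A, SEC24B and SEC31A).

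On the LXR side, 3 of 6 partner and coregulator genes had a promoter peak in DMSO (RXRA and NCOR1 among them), 0 in AMG510 and 2 in trametinib. Of all protein-coding genes, 24.2%, 15.3% and 11.8% had one in these libraries. Of 9 LXR target genes, MYLIP, which encodes a ubiquitin ligase, had one in DMSO and trametinib, and no other gene of that list had one. This is 11.1% of the list, below the share of all genes in DMSO and near it in trametinib. Among 20 SREBP target genes the numbers were 7 in DMSO (LSS, TMEM97, FASN, ACACA, ACLY and SCD among them), 3 in AMG510 (LSS, ACACA and ACLY) and 4 in trametinib (SQLE, LSS, FASN and ACACA). As shares these are 35%, 15% and 20%, so the AMG510 count was near the share of all genes. Presence in one list and absence from another was not tested for any of these genes, since each rests on 1 library.

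**Figure D4:**
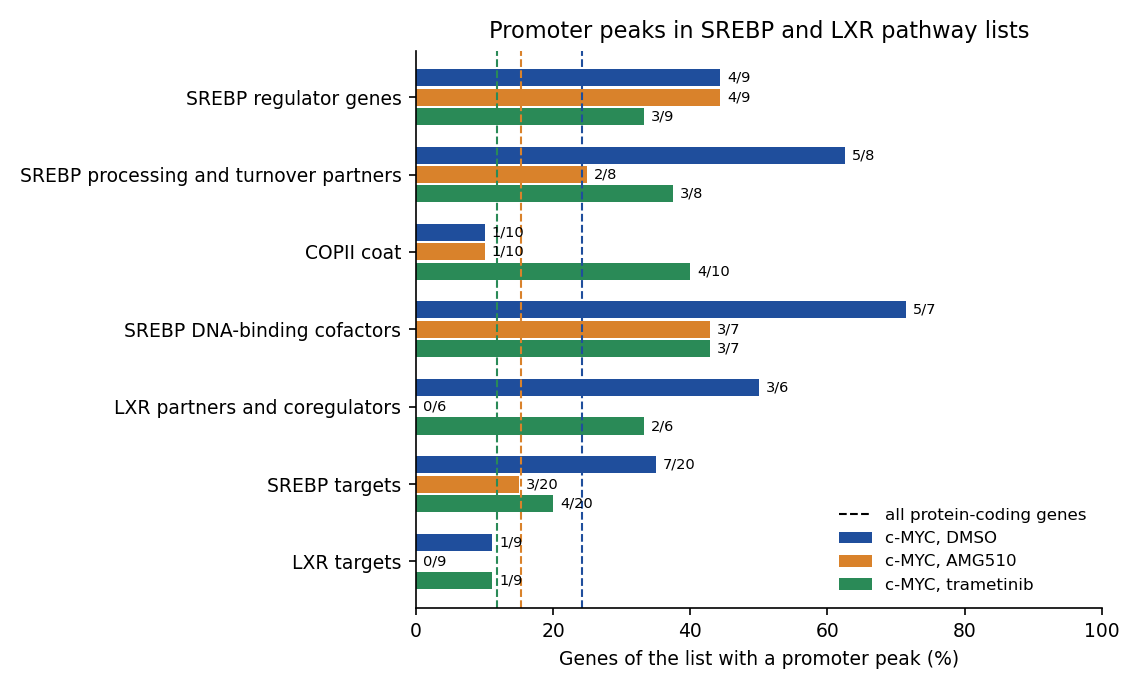
Share of genes with a promoter peak (%, x axis) in the SREBP regulator genes and 6 further lists, for the c-MYC libraries in DMSO, AMG510 and trametinib; numbers beside the bars are genes with a peak of genes in the list, and dashed lines give the share of all protein-coding genes in the library of the same colour. The SREBP regulator genes stand at 4, 4 and 3 of 9.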

How the data were processed

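Each of the 4 ChIP-seq libraries came as its own peak list. Per the study's methods, the authors trimmed paired reads, aligned them to GRCh38, kept alignments of mapping quality 20 or more, removed duplicates, called peaks with MACS2 and dropped regions of the ENCODE exclusion list. The submitters' processing notes name Trimmomatic 0.39, BWA 0.7.17, SAMtools 1.9, bedtools 2.27.1 and MACS2 2.2.7.1. Whether IgG served as the control in calling is not given in the sources used here. Each list, as deposited, gives the fold enrichment (a ratio), the −log10 p-value, the −log10 q-value and a score per peak.

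Samples were grouped by their titles. Tags at a summit and the background rate were solved from fold enrichment and p-value, and were whole in 100% of peaks (tolerance 0.0005 of the −log10 p). Depth was estimated from the most frequent background, the shortest peak width and a genome of 2700000000 bp. A fragment may be counted through both of its mates, so the exact Poisson intervals are too narrow. The tags a call needed were computed from the smallest −log10 p of each list, with the local background scaled between libraries. Genes came from GENCODE version 44, without mitochondrial genes, and every contig of the lists is in the reference. Coordinates are 1-based. Peaks sharing 1 bp or more counted as overlapping. All 9 members are named, further genes are given as counts and in part by name, some genes are not reported here, and members and lists were chosen with earlier results of these data known. Alternatives covered the promoter window, the set of starts, peak strength, overlap and the E-box window. Python 3.11.15 with scipy 1.17.1 was used, and the pileup solution was tested on simulated data.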

Additional observations from a re-analysis of the deposited data

Results flagged for a closer look

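Near the members, 5 c-MYC peaks that the promoter, gene-body and upstream rule leaves out had no IgG peak under them. At SREBF1 a DMSO peak with 18 tags had its summit 195 bp past the 3′ end of the gene and 922 bp from a start of the neighbouring gene RAI1. At NR1H3 an AMG510 peak with 11 tags lay 384 bp past the 3′ end and 41 bp from a start of MADD, with a CACGTG within 100 bp of its summit. Upstream, a DMSO peak with 11 tags lay 12529 bp from MBTPS1, an AMG510 peak with 11 tags 16250 bp from MBTPS2, and a DMSO peak with 11 tags 13700 bp from NR1H2. Each was called in a single library.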

How the results depend on the processing

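Under the alternatives, 50 of 70 values for 18 results stayed within 1.5 times of the reported count. These 50 include the IgG results and the gene-body or upstream result of trametinib, which were 0 and stayed 0. A stricter setting could not have raised a 0, so the 50 overstate how steady the other results were. The other 20 values moved beyond 1.5 times. A window of 500 bp, within that range by count (3 members in DMSO), dropped SREBF1 from DMSO and kept it in both drug libraries, so that MBTPS2 alone was then called in all of the c-MYC libraries. No paired analysis was possible because no group holds a second library, and there is no replicate to leave out. Unless stated, the cause was not tested. A fold enrichment above 5 left 2 members with a DMSO promoter peak and 0 with one in AMG510 or trametinib, 0 and 1 members with a gene-body or upstream peak in DMSO and AMG510, and 13, 3 and 8 further pathway genes in DMSO, AMG510 and trametinib. A score above 60 left 2, 0 and 0 members with a promoter peak, and 0 with a gene-body or upstream peak in DMSO and in AMG510. An upstream limit of 5 kb left 1 member with such a peak in AMG510, since INSIG2 dropped out. For the E-box, a window of 50 bp gave 1 DMSO, 1 AMG510 and 0 trametinib member peaks, the whole peak gave 2 in trametinib, and counting CACGCG as well gave 2 in trametinib. Requiring summits within 200 bp left 1 DMSO member peak shared with trametinib, since those of MBTPS2 are further apart. Depth limits every absent peak, as a pileup under the calling limit is not known.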

Other observations

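Both SREBP genes also host a microRNA of the miR-33 family, which represses cholesterol export genes. The MIR33B hairpin lies in intron 16 of SREBF1, from 17813836 to 17813931 on chromosome 17, and the MIR33A hairpin in intron 16 of SREBF2, from 41900944 to 41901012 on chromosome 22. No peak of any library covered either hairpin. The nearest peak to MIR33B was 2105 bp away in AMG510, the intron 11 peak of SREBF1, 3496 bp away in DMSO, past the 3′ end of the gene, and 22524 bp away in trametinib. The nearest to MIR33A was 45368 bp away in AMG510 and 45379 bp away in DMSO.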
